A study of Mus musculus with 4 samples.

Results

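The genes described here are Casp6, Casp9, Apaf1, Cycs, Diablo, Xiap, Birc2 and Birc3, which encode caspases, parts of the apoptosome, an antagonist of the inhibitors of apoptosis (IAPs) and IAPs themselves. They were taken from the expression table by gene symbol, and all 8 were found among its 16142 genes. RNA-seq of polyA RNA compared CD4+ T cells that express a cleavage-resistant form of the ribonuclease Regnase-1 with WT cells, in 2 libraries of each. The WT cells came from B6 mice, which carry neither the transgene nor Cre. The R111A cells came from Cd4CreERT2LSL-R111Afl/fl mice, in which a tamoxifen-inducible Cre expressed from Cd4 removes a stop cassette and so switches on a Regnase-1 transgene, marked by EGFP, whose MALT1 cleavage site is changed. Tamoxifen was injected into the peritoneum (75 mg/kg on each of 5 days), and the protocol names it after both genotypes. Splenic CD4+ T cells of both groups were purified and sorted by FACS, then cultured for 12 h with antibodies to CD3 (5 µg/mL) and CD28 (1 µg/mL). The methods give mice of either sex at 6 to 12 weeks as the default. Whether each library came from its own animal is not given, so p-values measure only the spread between these samples, which may be technical.

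In the mitochondrial route to apoptosis, cytochrome c leaves the mitochondrion and binds Apaf1, which assembles into the apoptosome and activates the initiator caspase encoded by Casp9, and this in turn activates further caspases that dismantle the cell. IAP proteins restrain this cascade, Xiap by binding caspases directly and the products of Birc2 and Birc3 mainly as ubiquitin ligases in TNF receptor and NF-kB signaling, while Diablo, once released from mitochondria, binds IAPs and relieves their hold. T cells depend on this balance when they are activated and when an expanded population is removed.

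In stimulated R111A CD4+ T cells, the transcript of the apoptosome scaffold Apaf1 was 2.62 times its mean WT level, while that of its ligand, Cycs, was 0.608 times its mean WT level. The IAP genes moved in different directions, with Birc3 at 1.65 times and Xiap at 0.510 times the mean WT level. The IAP antagonist Diablo was lower, at 0.725 times. By limma, 2 of the 8 genes (Apaf1 and Birc3) were higher and 3 (Cycs, Diablo and Xiap) were lower at an adjusted p under 0.05, where 21.2% of all 9831 genes tested were higher and 32.1% were lower. With a 2-fold threshold added, 1 of the 8, Apaf1, was higher and 0 were lower, where the shares of all genes were 8.52% and 8.34%. Casp6, Casp9 and Birc2 did not pass the adjusted p. In each of the 8 genes both R111A values lay on the same side of both WT values, 3 higher and 5 lower. This holds for most genes tested, since 32.0% of them were higher and 46.3% were lower without overlap, and the counts of the 8 genes are read against those shares.

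**Figure D1:**
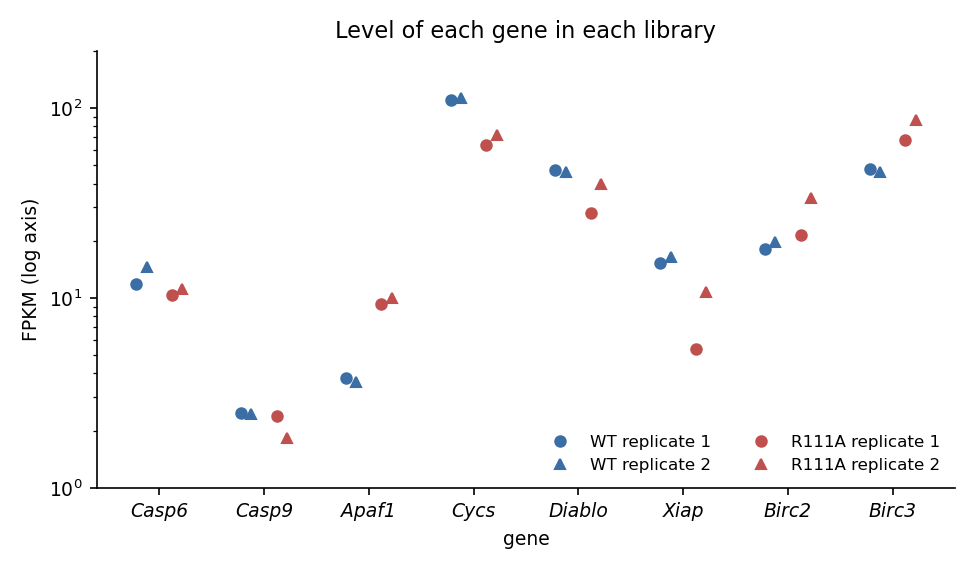
FPKM (log axis) of each gene in the 4 libraries, with WT in blue, R111A in red, and replicates 1 and 2 as circles and triangles. Cycs was the most abundant in WT at 109 and 113 FPKM, Casp9 was below 2.5 FPKM in all 4 libraries, and Apaf1 was the gene furthest above its WT values in R111A.

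Levels are given as FPKM, the fragments assigned to a gene per kilobase of transcript and per 1e6 mapped, so that levels can be set side by side between genes. The FPKM values summed to 801475 (replicate 1) and 836143 (replicate 2) in WT and to 1053551 and 1012215 in R111A. The number of fragments was estimated from steps of single fragments among low values, taking the effective length of a transcript as its length less 200 bases, the offset at which the steps were tightest. In units of 1e6 fragments, this gave 16.5 and 15.5 for the WT libraries and 15.8 and 13.9 for the R111A libraries. Fold changes were tested on log2(FPKM + 1) for genes averaging 1 FPKM or more, which all 8 genes passed, and on this scale the change of low genes is understated. Each fold change is R111A against WT, with its standard error after ±. With so few libraries, each adjusted p rests on the variance model that limma fits across genes.

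Zc3h12a, which encodes Regnase-1, was at 17.0 and 15.7 FPKM in the WT libraries and at 196 and 131 FPKM in the R111A libraries (log2 fold change 3.22 ± 0.19, adjusted p = 9.2e-06). Both libraries labelled R111A were thus far above both WT libraries, although the values do not separate the transgene from the endogenous gene. The T cell identity of the samples was read from Cd3e, Cd3d, Cd3g, Cd4, Cd2, Cd5, Lck and Thy1. All 8 were present, with summed levels of 2000 and 2000 FPKM in WT and 1695 and 1524 FPKM in R111A, the most abundant on average being Cd3g. Of these, 1 was higher and 5 were lower in R111A, where 21.2% and 32.1% of all genes were. Thy1 had the largest fold change of them, at 96.5 and 98.1 FPKM in WT against 25.5 and 25.1 FPKM in R111A. Cd4 was at 158 and 131 FPKM in WT against 70.7 and 51.4 FPKM in R111A.

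Apaf1 (NCBI gene 11783; chromosome 10 from 90989311 to 91082743 of GRCm38.p6, the assembly of mm10, minus strand) encodes the scaffold of the apoptosome. It was at 3.78 and 3.59 FPKM in WT replicates 1 and 2, and at 9.31 and 10.0 FPKM in their R111A counterparts. Both R111A libraries were high and close to each other, and the groups were well apart. Its log2 fold change was 1.18 ± 0.14 (adjusted p = 2.0e-04 by limma), larger than that of 93.4% of the genes tested. Apaf1 passed the adjusted p under each of the 16 alternatives run. About 400 and 350 fragments stood behind the WT values and 940 and 890 behind the R111A values, for the longest coding transcript of 6577 bases, so counting error alone was between 3.3% and 5.3%. For the shortest, of 1596 bases, they would be 87 and 78 in WT and 210 and 190 in R111A, with a larger error.

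Cycs (NCBI gene 13063; chromosome 6 from 50562563 to 50566569, minus strand) encodes the somatic cytochrome c, which carries electrons in the respiratory chain and, in the cytosol, triggers assembly of the apoptosome. It was at 109 and 113 FPKM in WT replicates 1 and 2, and at 63.4 and 71.7 FPKM in their R111A counterparts. Both R111A libraries were low, and the gap between the groups was wider than the gap within either. On the log2 scale the change was -0.71 ± 0.13 (adjusted p = 0.0020), and the call held under each of the 16 alternatives. The annotation lists 3 related loci, Cycs-ps2, Cycs-ps3 and Cyct, and the estimation of expression could divide reads between near-identical copies, so the level of Cycs is uncertain to that extent.

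Casp9 (NCBI gene 12371; chromosome 4 from 141793612 to 141815978, plus strand) encodes the initiator caspase that the apoptosome activates, and it had the lowest level of the 8 genes. It was at 2.48 and 2.46 FPKM in the WT libraries and at 2.39 and 1.83 in the R111A libraries. R111A replicate 1 was close to WT and R111A replicate 2 was low. The log2 fold change of -0.16 ± 0.15 (adjusted p = 0.38) was no larger than the spread between replicates. It was -0.29 without R111A replicate 1 and -0.03 without R111A replicate 2. After rescaling to TPM it was -0.41 and passed by limma (adjusted p = 0.0435). In R111A replicate 2 the value rested on about 94 fragments if they came from the longest coding transcript (a counting error of 10.0%), and on about 33 if from the shortest. Within a library, a ratio of levels is the same under any scaling by 1 factor per library, though not under quantile normalization. The ratio of Apaf1 to Casp9 was 1.52 and 1.46 in WT and 3.90 and 5.46 in R111A, and the ratio of Cycs to Apaf1 was 28.9 and 31.5 in WT and 6.81 and 7.17 in R111A. Ratios were not tested, and most single genes do not overlap between these groups, so a gap between 2 and 2 ratios is not support in itself.

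The promoters of Apaf1 and Cycs are shown because these are the 2 genes of the apoptosome that passed the adjusted p, in opposite directions. Each is the stretch from 250 bases before to 50 bases after the annotated start, from RefSeq (GRCm38.p6), on the minus strand at chr10:91082694-91082993 and chr6:50566520-50566819. Capitals mark matches on either strand to the NRF-1 core GCGCATGC, named for a factor of nuclear genes for respiration, and to the cyclic AMP response element TGACGTCA.
Apaf1: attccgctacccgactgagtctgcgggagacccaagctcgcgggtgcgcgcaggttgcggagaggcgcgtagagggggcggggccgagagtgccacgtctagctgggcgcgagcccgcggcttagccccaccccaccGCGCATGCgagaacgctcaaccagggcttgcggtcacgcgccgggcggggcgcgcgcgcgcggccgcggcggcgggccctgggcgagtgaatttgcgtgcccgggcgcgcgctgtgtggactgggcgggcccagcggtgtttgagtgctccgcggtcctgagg
Cycs: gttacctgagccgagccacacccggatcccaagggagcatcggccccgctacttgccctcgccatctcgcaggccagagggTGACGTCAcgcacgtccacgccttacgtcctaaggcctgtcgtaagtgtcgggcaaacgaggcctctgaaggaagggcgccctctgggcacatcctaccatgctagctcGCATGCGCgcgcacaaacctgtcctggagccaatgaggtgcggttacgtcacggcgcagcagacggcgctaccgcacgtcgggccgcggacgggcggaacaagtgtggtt
Both promoters held 1 match to the NRF-1 core, which is in 2.71% of the 32851 promoters in the table, and that of Cycs also held the cyclic AMP response element, which is in 1.79%. All 8 genes had a promoter in the table, with 11 in all, and no other of these held the NRF-1 core. Neither E2F motif searched, TTTCCCGC and TTTGGCGC, was in any of them (1.56% of all promoters held one of the 2). A match describes the letters in the window and not a bound site.

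Casp6 (NCBI gene 12368; chromosome 3 from 129901415 to 129914112, plus strand) encodes an effector caspase whose known substrates include lamin A. It was at 11.8 and 14.5 FPKM in WT cells and 10.3 and 11.1 in R111A cells. The R111A values were close to each other and the lower WT value lay near them. Its log2 fold change of -0.27 ± 0.15 (adjusted p = 0.16) did not pass, except after rescaling to TPM (adjusted p = 0.0070, the lowest of its alternatives, which ran up to 0.76). Its WT replicates lay further apart than those of 93.2% of the genes tested.

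Of 6 other caspase genes listed, 5 were in the table and 4 were tested. Of these 4, 0 were higher and 2 lower at an adjusted p under 0.05, where 21.2% and 32.1% of all genes were. The list does not hold every other caspase, so its counts do not describe the family as a whole. Casp2, which responds to DNA damage and division errors, was at 26.2 and 25.8 FPKM in WT, against 15.5 and 16.7 FPKM in R111A (log2 fold change -0.66 ± 0.13, adjusted p = 0.0033). Casp4, an inflammatory caspase, was at 11.2 and 11.0 FPKM in the WT libraries and at 7.0 and 6.93 in the R111A libraries (log2 fold change -0.60 ± 0.14, adjusted p = 0.0058). Each was lower in both R111A libraries, and each lost its call without WT replicate 1 and without WT replicate 2. The log2 fold changes were then -0.65 and -0.67 for Casp2 and -0.59 and -0.62 for Casp4.

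Casp8, the initiator of the death receptor route, was at 32.7 and 31.6 FPKM in WT, against 34.9 and 45.9 FPKM in R111A (log2 fold change 0.31, adjusted p = 0.13). Casp8 passed without R111A replicate 1 (log2 fold change 0.50, adjusted p = 0.0059, the lowest of its alternatives, which ran up to 0.93) and with the length and GC trend removed. After rescaling to TPM its log2 fold change was -0.020. Casp1, an inflammatory caspase, had a log2 fold change of 0.16 (adjusted p = 0.40), which was -0.10 with TPM. Casp12 was listed at 0 in all 4 libraries.

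Diablo (NCBI gene 66593; chromosome 5 from 123511330 to 123524164, minus strand), the mitochondrial antagonist of IAPs, was at 47.3 and 46.1 FPKM in the WT libraries and at 28.1 and 39.6 in the R111A libraries. The WT libraries were nearly equal, R111A replicate 1 was low, and R111A replicate 2 lay between it and WT. The log2 fold change was -0.47 ± 0.17 (adjusted p = 0.046). This call was close to the threshold and was kept under 10 of 16 alternatives, with adjusted p from 0.0017 to 0.20. The call was lost under quantile normalization, under median-of-ratios factors, when the filter was dropped, and without WT replicate 1, WT replicate 2 or R111A replicate 1. Without R111A replicate 1 the log2 fold change was -0.23, and without R111A replicate 2 it was -0.72.

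Of 5 other mitochondrial death proteins and IAP antagonists listed, 4 were tested. At an adjusted p under 0.05, 1 was higher and 3 were lower, where 21.2% and 32.1% of all genes were. The median log2 fold change of the list was -0.64 (-0.53 relative to all genes). Endog, a mitochondrial nuclease, was at 23.5 and 26.8 FPKM in WT cells and 9.49 and 5.63 in R111A cells (log2 fold change -1.64 ± 0.21, adjusted p = 3.6e-04). Htra2, a mitochondrial protease that binds IAPs as Diablo does, had a log2 fold change of -0.75 ± 0.15 (adjusted p = 0.0034), and the flavoprotein gene Aifm1 one of -0.54 ± 0.13 (adjusted p = 0.0094). The remaining gene tested, Xaf1, encodes a protein that binds Xiap and was at 0.860 and 0.250 FPKM in WT, against 4.83 and 3.57 FPKM in R111A (log2 fold change 1.76 ± 0.21, adjusted p = 2.4e-04). Xaf1 was above 1 FPKM only in R111A and so entered the test through that group. With no filter its adjusted p was 0.010, the highest of its alternatives, and the lowest, 3.9e-23, came with replicate number as a block. Septin4 was below 1 FPKM in all 4 libraries and was not tested. Endog, Htra2 and Aifm1 were thus lower along with Cycs and Diablo. Htra2 lost its call without WT replicate 2, and Aifm1 without either WT replicate.

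Xiap (NCBI gene 11798; chromosome X from 42059613 to 42109664, plus strand) encodes the IAP that binds and blocks caspases directly. It was at 15.2 and 16.4 FPKM in WT replicates 1 and 2, and at 5.35 and 10.8 FPKM in their R111A counterparts. Both R111A libraries were low, but they lay further apart than the WT libraries, with R111A replicate 2 at about the middle between R111A replicate 1 and WT. The log2 fold change was -0.96 ± 0.26 (adjusted p = 0.013), lower than that of all but 9.19% of the genes tested. Xiap passed the adjusted p under 15 of 16 alternatives and lost it with no filter (adjusted p = 0.084, the highest). The lowest, 2.5e-07, came with replicate number as a block, and these numbers may not pair the libraries. Without R111A replicate 1 the log2 fold change was -0.51 and without R111A replicate 2 it was -1.40.

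Birc2 and Birc3 encode cIAP1 and cIAP2 and lie beside each other on the minus strand of chromosome 9, Birc2 (NCBI gene 11797) from 7818226 to 7837131 and Birc3 (NCBI gene 11796) from 7847468 to 7873205. The gap between them is 10.3 kb and holds 0 other annotated genes. Birc3 was at 47.8 and 45.8 FPKM in the WT libraries and at 67.8 and 86.7 in the R111A libraries. Both R111A libraries were high, R111A replicate 2 the higher (log2 fold change 0.70 ± 0.15, adjusted p = 0.0046). The call held under 15 of 16 alternatives and was lost after rescaling to TPM (log2 fold change 0.37, adjusted p = 0.059, the highest). The lowest, 4.2e-05, came with replicate number as a block.

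Birc2 was at 18 and 19.6 FPKM in WT cells and 21.4 and 33.6 in R111A cells. R111A replicate 1 was just above WT and R111A replicate 2 was well above it, so its log2 fold change of 0.49 ± 0.20 (adjusted p = 0.069) did not pass. Without R111A replicate 1 it was 0.81 and without R111A replicate 2 it was 0.18. Birc2 passed under 6 of 16 alternatives, with adjusted p from 0.0021 to 0.47. The ratio of Birc3 to Birc2 was 2.65 and 2.33 in WT and 3.17 and 2.58 in R111A, so the groups overlapped. Because the 2 genes are paralogs, reads from shared stretches could be divided between them.

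The promoters of this neighboring pair are shown for comparison, from RefSeq (GRCm38.p6) on the minus strand at chr9:7837008-7837307 for Birc2 and chr9:7873121-7873420 for Birc3. Capitals mark the cyclic AMP response element TGACGTCA.
Birc2: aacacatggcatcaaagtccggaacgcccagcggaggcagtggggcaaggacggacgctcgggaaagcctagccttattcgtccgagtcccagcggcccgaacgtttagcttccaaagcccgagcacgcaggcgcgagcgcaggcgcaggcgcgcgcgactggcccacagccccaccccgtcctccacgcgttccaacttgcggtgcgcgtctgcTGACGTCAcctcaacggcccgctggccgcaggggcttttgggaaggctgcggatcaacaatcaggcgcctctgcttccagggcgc
Birc3: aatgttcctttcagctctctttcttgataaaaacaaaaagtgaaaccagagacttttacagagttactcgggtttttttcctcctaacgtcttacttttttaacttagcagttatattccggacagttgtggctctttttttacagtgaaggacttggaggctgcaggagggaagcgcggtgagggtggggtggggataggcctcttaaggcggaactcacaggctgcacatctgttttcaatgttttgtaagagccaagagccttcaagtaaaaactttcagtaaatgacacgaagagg
The Birc2 promoter had a GC content of 67.0% and that of Birc3 of 43.0%. The kappa-B consensus, searched on both strands, is in 4.51% of all promoters in the table and was in none of the promoters of the 8 genes. The p53 half-site, which is in 8.36% of all, was in 1 of them, a second Birc2 start site at chr9:7836757-7837056, with the match AGGCTAGTCT. No match in a window of 300 bases says nothing about sites elsewhere in these genes.

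The IAP genes together, as the sum of Xiap, Birc2 and Birc3, were at 81 and 81.7 FPKM in WT, against 94.5 and 131 FPKM in R111A. The share of Xiap in this sum was 18.8% and 20% in WT and 5.66% and 8.20% in R111A. The share of Birc3 was 59.0% and 56.0% in WT and 71.7% and 66.2% in R111A, while that of Birc2 stayed between 22.2% and 25.6%. In both R111A libraries the composition was therefore weighted toward Birc3 and away from Xiap. The ratio of Diablo to Xiap was 3.11 and 2.82 in WT and 5.24 and 3.69 in R111A, and the ratio of Diablo to the sum of the 3 IAP genes was 0.585 and 0.563 in WT and 0.297 and 0.302 in R111A. The log2 difference between the groups in the ratio of Diablo to Xiap, 0.57, was 0.32 without R111A replicate 1 and 0.82 without R111A replicate 2, so its size depends on 1 library.

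Of 7 other IAP genes listed, 6 were in the table and 2 were tested. Birc5, which encodes survivin and serves in cell division, was at 4.67 and 4.14 FPKM in the WT libraries and at 2.23 and 2.21 in the R111A libraries (log2 fold change -0.75 ± 0.14, adjusted p = 0.0024). Birc6, which encodes a large ubiquitin ligase, was at 24.7 and 19.7 FPKM in WT cells and 20.2 and 20.5 in R111A cells, with overlapping groups (log2 fold change -0.11, adjusted p = 0.55). Its sign changed to 0.00 with quantile normalization, and it passed after rescaling to TPM (adjusted p = 0.036, against 0.99 at the highest). Naip2, Naip5 and Naip6, sensors of bacterial proteins in myeloid cells, were at or below 0.910 FPKM in every library, and Naip1 was listed at 0 in all 4.

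The median log2 fold change over all genes tested was -0.12 on FPKM as deposited, -0.42 after rescaling each library to TPM, -0.04 with quantile normalization and -0.03 with median-of-ratios factors. The share of higher genes among those past the adjusted p was 39.8% on FPKM as deposited, 20.8% after rescaling to TPM, 46.9% with quantile normalization and 47.4% with median-of-ratios factors. Relative to the median of all genes under each scaling, Apaf1 was between 1.24 and 1.33, Birc3 between 0.79 and 0.95 and Birc2 between 0.59 and 0.66. On the same relative scale, Cycs was between -0.63 and -0.44, Diablo between -0.38 and -0.27, Xiap between -0.85 and -0.84 and Casp6 between -0.16 and -0.15. Casp9 lay between -0.23 and 0.01, and was the 1 gene of the 8 whose sign relative to the median changed, after rescaling to TPM. Relative to all genes, then, the order of the genes at either end was kept under the 4 scalings, while the calls of Birc2, Birc3, Casp6, Casp9 and Diablo depended on which scaling was used.

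**Figure D2:**
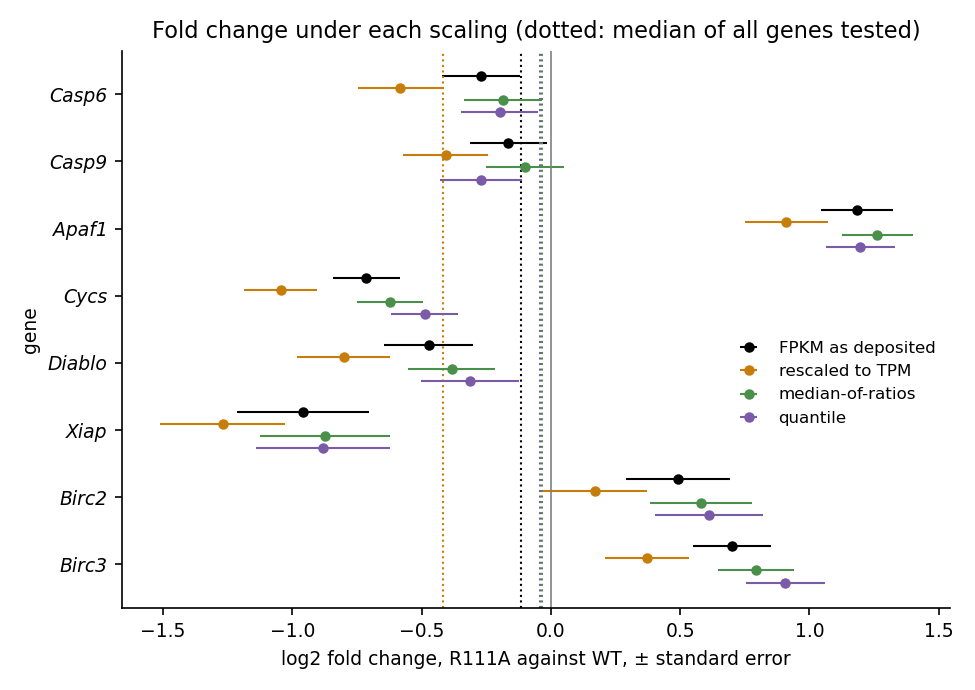
Log2 fold change of each gene, R111A against WT, with its standard error, under 4 scalings of the same 4 libraries, and the median of all 9831 genes tested under each scaling as a dotted line. The TPM values lie to the left of the others for each gene, as does the TPM median at -0.42, and Apaf1 lies to the right of every other gene under each scaling.

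The R111A libraries differed from each other more than the WT libraries did. Over all genes tested, the median absolute log2 ratio between replicates 2 and 1 was 0.09 in WT and 0.21 in R111A, and 1.13% and 10.0% of the genes differed by more than 0.50. Among the 8 genes, this log2 ratio in R111A was 0.89 for Xiap, 0.63 for Birc2, 0.48 for Diablo and 0.35 for Birc3, against 0.10, 0.12, -0.04 and -0.06 in WT. The gap of Xiap between the R111A libraries was larger than that of 99.4% of the genes tested, and that of Birc2 larger than that of 96.1%. Apaf1 differed by 0.09, less than most genes. The source of the gap between the 2 R111A libraries was not tested.

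**Figure D3:**
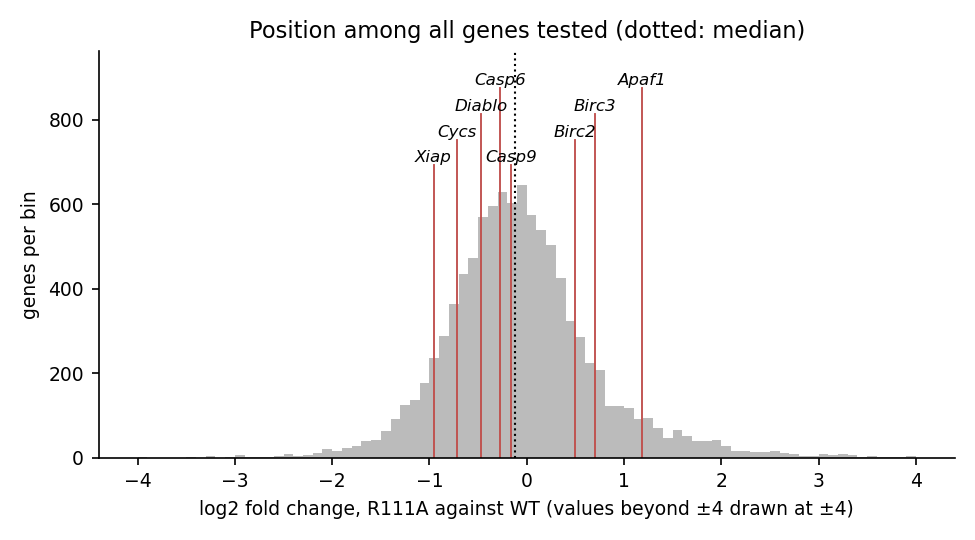
Histogram of the log2 fold changes of all 9831 genes tested, with the position of each of the 8 genes as a red line and the median of -0.12 dotted. Apaf1 lies above 93.4% and Xiap above 9.19% of the genes, and Casp9 and Casp6 lie near the median.

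All 4 genes listed for modulation of the apoptosome and maturation of cytochrome c passed the adjusted p and were lower, where 32.1% of all genes were. Their median log2 fold change of -0.90 stood beside -0.12 for all genes, and the list was chosen with earlier results known. Hccs, the enzyme that attaches heme to cytochrome c, was at 43.7 and 47.7 FPKM in WT, against 20.2 and 26.5 FPKM in R111A (log2 fold change -0.95 ± 0.16, adjusted p = 0.0013). Aven, a protein that binds Apaf1 and Bcl-xL, had a log2 fold change of -0.93 ± 0.15 (adjusted p = 0.0011). Ptma and Anp32a, which act on apoptosome assembly in opposite ways, had log2 fold changes of -0.59 (adjusted p = 0.0033) and -0.88 (adjusted p = 0.0016). Hccs therefore fell together with the gene for its substrate, Cycs.

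Of 13 caspase substrates of the execution phase listed, 10 were tested, and 0 were higher and 5 lower (32.1% of all genes were lower), with a median of -0.38 that ran from -0.71 with TPM to -0.21 with quantile normalization. With 1 library left out, 3 (without WT replicate 1) to 5 were lower and 0 to 1 (without R111A replicate 2) higher. Parp1, a DNA repair enzyme that is a classic caspase substrate, was at 81.9 and 72.9 FPKM in the WT libraries and at 26.1 and 23.1 in the R111A libraries (log2 fold change -1.61 ± 0.14, adjusted p = 4.1e-05). Lmnb1, which encodes lamin B1, had a log2 fold change of -1.37 ± 0.13 (adjusted p = 8.0e-05), while Pak2, a kinase that caspases activate, had one of -0.95 ± 0.13 (adjusted p = 4.9e-04) and Dffa, the inhibitor of the caspase-activated nuclease, one of -0.73 ± 0.14 (adjusted p = 0.0025). Dffa lost its call without WT replicate 1, where its log2 fold change was -0.68. These are transcript levels and say nothing of cleavage of the proteins.

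Upstream of cytochrome c release, 14 of 17 BCL2 family genes listed were tested, with a median of 0.30. At an adjusted p under 0.05, 7 of the 14 were higher and 4 lower, where 21.2% and 32.1% of all genes were. After rescaling to TPM, 4 were higher and 6 lower (1335 and 5096 of all 9831 genes), with a median of -0.03. With 1 library left out the median ran from 0.22 to 0.31. The largest changes were in Bbc3, which encodes the BH3-only protein PUMA (6.35 and 6.43 FPKM in WT against 99.1 and 70.8 in R111A) and in Bcl2l1, which encodes the survival protein Bcl-xL (88.6 and 95.8 FPKM in WT against 24.8 and 18.9 in R111A). Pmaip1, which encodes NOXA, had a log2 fold change of 1.88 ± 0.20 (adjusted p = 1.1e-04), and Bid, which links death receptors to mitochondria, one of -1.52 ± 0.15 (adjusted p = 7.7e-05). Genes of the family were thus called in both directions, among death and survival genes alike. The 4 lower of 14 were near the share of all genes.

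Apaf1 is also known as a target of p53. Of 15 p53 target genes listed, 14 were tested, with 13 higher and 0 lower and a median log2 fold change of 1.54, against 1.18 for Apaf1 itself and -0.12 for all genes. Among all genes tested, the shares past the adjusted p were 21.2% higher and 32.1% lower. After rescaling to TPM, 10 of the 14 were higher and 0 lower (1335 and 5096 of all 9831 genes). The list shares Bbc3, Bax and Pmaip1 with the BCL2 family. Cdkn1a, which blocks the cell cycle, had the largest change (log2 fold change 3.89 ± 0.15, adjusted p = 2.7e-06). Phlda3, a repressor of Akt, was at 12.4 and 13.5 FPKM in WT, against 156 and 118 FPKM in R111A. Fas, a death receptor, had a log2 fold change of 2.09 ± 0.17 (adjusted p = 3.1e-05). The list was written with earlier results of these data known, and a link between p53 and Apaf1 was not tested.

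The products of Birc2 and Birc3 act with TRAF and RIPK proteins. Of all 9831 genes tested, 21.2% were higher and 32.1% lower, and after rescaling to TPM 1335 genes were higher and 5096 lower. Of 19 such signalling partners listed, all 19 were tested, with 5 higher, 0 lower and 14 past neither, and a median of 0.13. After rescaling to TPM, 2 were higher and 7 lower, with a median of -0.19, and with 1 library left out 2 to 7 were higher and 0 to 3 lower. Traf2, which recruits both cIAP proteins to receptors, was at 20.1 and 22.3 FPKM in the WT libraries and at 55.3 and 53.7 in the R111A libraries (log2 fold change 1.32 ± 0.13, adjusted p = 8.6e-05). Traf1, its partner, was at 28.7 and 28.5 FPKM in WT cells and 59.4 and 50.2 in R111A cells (log2 fold change 0.91 ± 0.14, adjusted p = 8.0e-04). Tab1 and Tnfaip3 had log2 fold changes of 0.63 and 0.59 and lost their calls after rescaling to TPM and without either WT replicate. These fold changes were 0.32 and 0.27 with TPM, 0.64 and 0.62 without WT replicate 1, and 0.61 and 0.57 without WT replicate 2.

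Birc3 is a known NF-kB target. Of 10 NF-kB factors and inhibitors, all tested, 3 were higher and 1 was lower, where 21.2% and 32.1% of all genes were. The median of the list was 0.06. After rescaling to TPM, 1 was higher and 4 were lower (1335 and 5096 of all 9831 genes), with a median of -0.27. The median was 0.29 with quantile normalization and ran from -0.10 (without R111A replicate 1) to 0.38 (without R111A replicate 2) when a library was left out, with 1 to 5 genes higher and 0 to 4 lower. Nfkbia, which encodes the inhibitor IkBa and is itself induced by NF-kB, was at 149 and 161 FPKM in WT, against 451 and 391 FPKM in R111A (log2 fold change 1.43 ± 0.13, adjusted p = 5.9e-05). Nfkbiz was at 0.62 (adjusted p = 0.011), Relb at 0.48 (adjusted p = 0.036) and Nfkbie at -0.49 (adjusted p = 0.019), each a log2 fold change, and each of these 3 lost its call under several alternatives. Higher Birc3 thus stood beside higher Nfkbia, while most factors of the list did not pass.

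**Figure D4:**
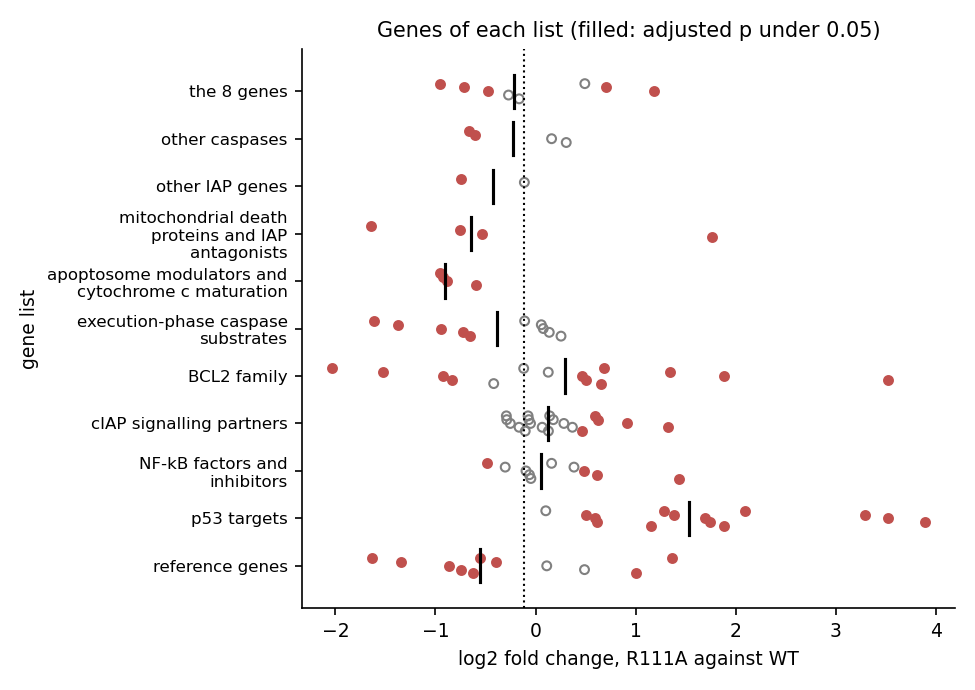
Log2 fold change of each gene tested in 11 lists, the 8 genes first, with filled points for an adjusted p under 0.05, a black bar at the median of each list and a dotted line at the median of all genes, -0.12. The p53 targets lie furthest to the right, with a median of 1.54, and the modulators of the apoptosome furthest to the left, with a median of -0.90.

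A set of 11 genes often used as references gives the scale of change among abundant transcripts. Of these, 2 were higher and 7 were lower, where 21.2% and 32.1% of all genes were. Their median of -0.55 was lower than that of the 8 genes, -0.22. With 1 library left out, 4 (without WT replicate 1) to 7 were lower and 2 to 3 higher. Gusb had a log2 fold change of -1.64 and Gapdh of -1.35, while B2m had one of 1.37 and Rpl13a one of 1.00, which was 0.02 and not called with quantile normalization. Ppia, at 5976 and 6221 FPKM in WT and 6060 and 7161 FPKM in R111A, did not pass (adjusted p = 0.51). None of them was used to scale the data.

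Regnase-1 is known to bind stem-loops in 3'UTRs, so for each gene the 3'UTR of the transcript with the longest coding region was folded in windows of 100 bases with RNAfold. Stem-loops were counted where the stem had at least 3 pairs, 1 of them GC, and the loop had 3 to 6 bases with a pyrimidine-purine-pyrimidine triplet. Of 9598 tested genes with a 3'UTR, 79.5% had at least 1 such prediction, with a median of 2.44 per kb. Among the 8 genes, 7 had at least 1 and Casp6 had 0. Xiap, with the longest 3'UTR of the 8 (4672 bases, longer than that of 96.1% of the genes), had 10, Cycs 7, Casp9 6, Apaf1 3, Diablo 2, Birc2 2 and Birc3 1. Per kb these came to 3.82 in Birc2, 2.62 in Cycs, 2.62 in Casp9, 2.48 in Diablo, 2.14 in Xiap, 1.77 in Birc3 and 1.41 in Apaf1. Lower genes and higher genes thus both carried them, and the densities of Xiap, Cycs and Diablo were near the median of all genes.

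The stem-loop with the longest stem is shown for the higher genes Apaf1 and Birc3 and the lower genes Xiap and Cycs, from GENCODE transcripts of GRCm38, with the loop in capitals. They lie in 3'UTRs at chr10:90990166-90990186 (minus), chr9:7849017-7849032 (minus), chrX:42106885-42106902 (plus) and chr6:50563645-50563660 (minus). Xiap had 2 stems of 7 pairs, and the one nearer to the stop codon is printed.
Apaf1: aaaaugaaAUAUCuucauuuu
Birc3: uguaaaCAUAuuuaca
Xiap: uagguuaCAUUugaucua
Cycs: gguguUGGCAUacacc
The stems hold 8, 6, 7 and 5 pairs, of which 1, 1, 1 and 3 are GC pairs. A predicted stem-loop is a description of the sequence, and binding of Regnase-1 to these transcripts was not tested.

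The 8 transcripts also differed in length and base composition. Xiap and Apaf1 were long, at 6834 and 6577 bases (above 92.7% and 91.7% of the genes tested, whose median was 2861 bases), and Casp6 was the shortest at 1456 bases. The GC content of Xiap, 36.8%, was lower than that of all but 0.605% of the genes tested, and that of Cycs, 40.8%, than that of all but 6.80%. With a trend in length and GC content removed from each library, an alternative chosen after the data were seen, Apaf1 had a log2 fold change of 1.2, Xiap of -1.01, Cycs of -0.73 and Birc3 of 0.72. These are close to the values without the correction, and Birc2 passed the adjusted p under it (log2 fold change 0.50, adjusted p = 0.0097).

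Markers of other cells were read beside these results. Most of them were below 1 FPKM in WT, and a gene that passes the filter only through R111A can hardly be called lower, so their levels are given without calls. All 6 B cell markers were in the table and summed to 2.15 and 1.01 FPKM in WT and to 5.21 and 4.54 FPKM in R111A, with Cd79a the most abundant on average. All 8 myeloid markers were in the table, with sums of 2.22 and 1.45 FPKM in WT and of 15.7 and 11.1 FPKM in R111A. Cd68 was the most abundant of these, and S100a9 was listed at 0 in all 4 libraries. All 4 erythroid markers were in the table, with sums of 0.660 and 0.700 FPKM in WT and of 12.9 and 13.0 FPKM in R111A, mostly from Hba-a1, while Hbb-bs was listed at 0 in all 4.

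All 4 NK cell markers were in the table, with sums of 19.8 and 23.6 FPKM in WT and of 7.40 and 6.18 FPKM in R111A. The lower sum in R111A came from Nkg7 alone, and Prf1, Ncr1 and Klrb1c each had R111A values above the WT values. Both CD8 T cell markers were in the table and, with Cd8b1 giving most, summed to 7.31 and 6.76 FPKM in WT and to 3.88 and 4.46 FPKM in R111A. Both Treg markers, Foxp3 and Ikzf2, were in the table and summed to 15.8 and 13.1 FPKM in WT and to 5.21 and 6.22 FPKM in R111A, with Foxp3 the more abundant in 3 libraries and Ikzf2 in R111A replicate 2. Their part in the values of the 8 genes was not tested. In bulk samples, fewer cells of a type and less RNA per cell cannot be told apart, and this holds for each of the 8 genes.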

How the data were processed

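RNA-seq was analysed for 2 WT and 2 R111A libraries of stimulated splenic CD4+ T cells. Per the labels and methods, the authors aligned reads to mm10 with Bowtie2 (2.4.4), estimated expression with RSEM (1.2.28), deposited FPKM for 16142 genes and tested counts with DESeq2, a step not repeated here. FPKM are not counts, so log2(FPKM + 1) was tested with limma (3.58.1 in R 4.3.3; lmFit, eBayes with trend, Benjamini-Hochberg adjustment over all 9831 genes averaging 1 FPKM or more), and the procedure was tested on simulated data. The thresholds were an adjusted p under 0.05 and a 2-fold change.

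Groups came from the sample labels. The genes and lists were chosen with earlier results of these data known. By rule, the text names the 8 genes, Zc3h12a, the listed other caspase and IAP genes, up to 4 genes with the largest fold change past the adjusted p from each other list, and of marker lists the most abundant gene and those at 0. Other markers and reference genes named were chosen after their values were seen.

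Positions and promoters are from RefSeq (GRCm38.p6), which held 16107 of the genes, and transcripts from GENCODE M21, which gave length and GC content for 99.3% of the genes tested. Stem-loops were predicted with RNAfold 2.7.2. The alternatives were other pseudocounts, filters, scalings and eBayes settings, a replicate block, each library left out, and, added after the data were seen, removal of a length and GC trend.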

Additional observations from a re-analysis of the deposited data

How the results depend on the processing

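Over the alternatives, the direction of all 8 genes was kept wherever they were tested. Casp9 was not tested with the filter at 5 FPKM. Apaf1 and Cycs kept their calls under each of the 16 alternatives. After rescaling to TPM, 1335 genes were higher and 5096 lower (2088 and 3152 on FPKM as deposited), with 1 of the 8 genes higher, 5 lower and 2 past 2-fold. These 2 were Cycs and Xiap, and Apaf1 at 0.91 no longer passed 2-fold. Over all genes, 583 were higher and 1749 lower past 2-fold after this rescaling, against 838 and 820 on FPKM as deposited. For the alternatives below, genes past 2-fold were not counted over all genes, so those counts of the 8 have no share beside them. With no filter, all 16142 genes but the 1694 at 0 in every library were tested. Of the 8 genes, 2 were then higher and 1 lower, beside 2479 and 2859 of all those tested. On FPKM as deposited, past 2-fold there were 2 with a pseudocount of 0.1 FPKM, 0 with one of 5 FPKM, and 2 with the length and GC trend removed, with and without the replicate block, where Xiap joined Apaf1. Leaving out each library in turn gave 1413 to 2539 genes higher and 1937 to 3790 lower, and of the 8 genes 2 to 3 higher, 2 to 3 lower and 1 to 2 past 2-fold. The lone library of a group was then assumed to vary like the other group. The cause of these changes was not tested.

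The log2 fold change changed sign after rescaling to TPM for Casp8 (-0.0196) and Casp1 (-0.10), and for Birc6 with quantile normalization (0.0016). Leaving out each library, it ran from -0.269 to 0.0449 (without WT replicate 1) for Birc6. None of the changed signs was called. With the replicate block, 2236 genes were higher and 3358 lower, and of the 8 genes 3 were higher, 3 lower and 1 past 2-fold, since Birc2 passed. The numbers may not pair the libraries, as deviations of WT replicate 1 and R111A replicate 1 from their group means correlated at only 0.11 over genes. Depth limits Casp9 most, at about 94 to 150 fragments a library for its longest coding transcript and 33 to 53 for its shortest.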
